A study of Homo sapiens with 6 samples.

Results

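The open chromatin regions of chromosome 19 that lie outside its zinc finger gene clusters were examined in sorted human embryonic stem cells. Members were chosen by position alone: a region of the deposited table belonged to the set if its midpoint on chromosome 19 of hg19 fell outside 7 windows, at 11.70 to 12.65, 19.90 to 24.40, 36.90 to 38.30, 44.30 to 45, 52.40 to 53.90, 54.15 to 54.31 and 56.50 to 59.00 Mb. This gave 2765 of the 3098 regions on the chromosome and of the 118556 in the table. The rule used no read count, but the chromosome was proposed with earlier results of these data known, so its difference between the populations is described here and is not independent evidence. The assay was FAST-ATAC: the enzyme Tn5 inserts sequencing adapters into exposed DNA, so the number of cuts reads out how open a region is. All libraries came from WA09, an established human embryonic stem cell line that carried no added gene or treatment in the sample labels. The GCTM-2highCD9highEPCAMhigh group (the high population) and the GCTM-2midCD9mid group (the mid population, titled low in the labels) had 3 biological replicates each and were sorted on these surface antigens. Both groups are 1 cell line, and the sort on EPCAM is given for the high group alone. The labelled cell type was not checked against marker genes, because no annotation of hg19 was used.

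Human chromosome 19 is known as the most gene-dense chromosome and is rich in G and C bases. Its long runs of zinc finger genes, most of them coding for transcription repressors with a KRAB domain, arose by repeated duplication and carry a chromatin of their own, whereas the remainder holds many broadly expressed genes with CpG-rich promoters. In GRCh38 the whole chromosome had a GC content of 47.9% and 24.8 protein-coding RefSeq genes per Mb, both the highest of the 24 chromosomes. Such promoters usually appear as wide, strongly cut regions in this assay, and distal elements as narrower ones. The members covered 4395 kb in all. They were 328 to 8579 bp wide, with a median of 1212 bp against 873 bp on all other chromosomes.

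Members took a smaller share of the reads in the high population. Of all reads in regions, they held 2.95%, 3.25% and 3.39% in high replicates 1, 2 and 3. In the corresponding mid replicates the shares were 4.62%, 4.83% and 4.47%, so that every mid library exceeded every high library. High libraries averaged 3.20% ± 0.225 (SD, n = 3), and mid libraries 4.64% ± 0.184 (SD, n = 3). The difference was -1.45 percentage points, with p = 0.1 by a two-sided exact permutation test, which cannot go lower with 3 libraries per population. Within pairs 1, 2 and 3 it was -1.68, -1.58 and -1.08 points. Total counts were 15486251 to 26225539 in the high and 23091028 to 29025274 in the mid libraries, and the part of depth in the difference was not tested. At these depths the widest 95% Wilson interval of these shares ran from 3.245% to 3.263%. It covers counting error only and not the variation between libraries. In bulk libraries, weaker opening in every cell and fewer cells with an open region cannot be told apart.

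**Figure D1:**
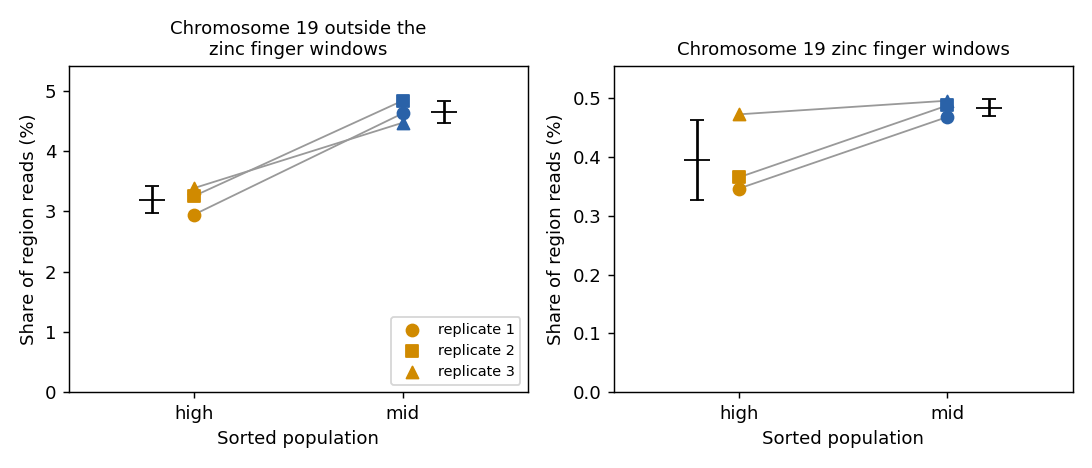
Share of all region reads (%, y axis from 0) in each library, by sorted population, for the members on the left and for the zinc finger windows of the same chromosome on the right. Points are libraries with a marker per replicate number, grey lines join same-numbered pairs, and bars give the mean and SD of 3 libraries; the members' share lies at 2.95% to 3.39% in the high and 4.47% to 4.83% in the mid population.

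Region by region, nearly all calls went to the mid population. The quasi-likelihood test of edgeR, run over all 118556 regions with the replicate number as a block, found 906 members (32.8%) higher in the mid population, against 3.77% of all regions. A region counts as called where its p, adjusted by Benjamini and Hochberg over all regions, is under 0.01. A single member (0.0362%) was called higher in the high population, against 2.32% of all regions. With no replicate block, 491 members were called higher in the mid population and 0 in the high population (4 had a positive change at an unadjusted p under 0.05). The count of 906 rested in part on replicate 2, and was 191 without mid replicate 2 and 317 without high replicate 2. Calls to the mid population over all regions fell too, from 4472 to 432 and 839, and to 1312 with no replicate block. The median log2 fold change of members was -0.49 without either replicate 2 library. In the main fit, members supplied 20.3% of all calls to the mid population. All 3 pairs changed in the called direction in each of the 906. A change of more than 2-fold was found in 66 of them (2.39% of members, against 0.243% of all regions). The 906 called members were wider (median 2241 bp) than the 1858 that were not called (958 bp). They held 71.0% of the members' reads in the mid population and 64.1% in the high population. The larger share in the mid population is built into their selection as higher there.

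The shift was not limited to called members. The median log2 fold change of high over mid was -0.49 over the 2765 members (quartiles -0.69 and -0.27), against 0.03 over all regions, and the median standard error of a single member was 0.18. A negative fold change was found for 2576 members (93.2%), and for 45.3% of regions on other chromosomes. Members that were not called had a median of -0.35. In 1555 members (56.2%) all 3 high libraries lay below all 3 mid libraries, against 13.0% of all regions, and in 9 (0.325%) they lay above, against 12.9%. The size of the shift differed between pairs: the median log2 ratio of members, computed with 0.1 CPM added, was -0.69, -0.51 and -0.30 in pairs 1, 2 and 3, and 0.03, 0.04 and 0.04 on other chromosomes. In both populations replicate 3 lay closest to the other population, with medians of -0.12 in the high and 0.19 in the mid library as log2 deviations from the mean of the 6 libraries. The members therefore moved the same way in every pair, with pair 3 moving least.

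**Figure D2:**
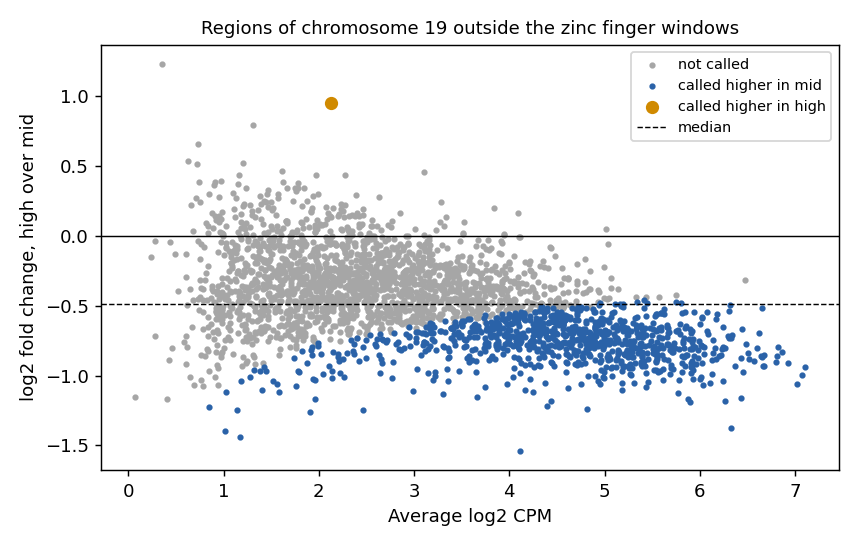
Log2 fold change of high over mid (y axis) against average log2 CPM (x axis) for each of the 2765 members, coloured by the edgeR call at an adjusted p under 0.01. The cloud is centred at -0.49 (dashed line) rather than at 0; the 906 members called higher in the mid population lie towards the higher read levels, and the single member called higher in the high population is drawn as a large point.

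Along the chromosome the shift was present in every bin of 2 Mb. Members fell into 26 such bins, of which 23 held 30 or more. The median log2 fold change of these 23 bins ran from -0.57 to -0.36, with an SD of 0.064 between bins, and in all 26 bins the median was negative in each of the 3 pairs. Summed CPM of the members did not overlap between the populations in 25 bins. The exception was the bin from 28 to 30 Mb, the first after the gap without members in the middle of the chromosome, with 174, 185 and 229 CPM in the high and 222, 285 and 272 CPM in the mid libraries. Neither the overlap nor the sign in each pair was counted for bins of other chromosomes, so how unusual these counts are is not known. Across the 23 bins the summed CPM of the high population was 0.61 to 0.755 of that of the mid population. Both arms were affected: the 1281 members before this gap had a median of -0.497 with 444 called higher in the mid population (34.7%), and the 1484 after it -0.485 with 462 (31.1%).

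At the short-arm end, the first bin from 0 to 2 Mb held 157 members with a median width of 1568 bp and had the highest called share of the 23 bins, 47.1%. Its members summed to 1879, 2199 and 2105 CPM in the high libraries and to 3520, 3476 and 3054 CPM in the mid libraries, with a median log2 fold change of -0.56. Within it lay the longest run of neighbouring members that were all called higher in the mid population, 11 in a row from 1019833 to 1124330. The bin from 4 to 6 Mb had the weakest median of the 23 bins, -0.36 over 150 members, with 38 calls (25.3%). From there to 20 Mb the called share lay between 23.9% and 41.6%. No member lay between 19888201 and 28283804, a gap that takes in the zinc finger window from 19.90 to 24.40 Mb. The centromere, whose position was not read from an annotation of hg19, is taken here to lie in this gap.

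The beginning of the long arm stood apart in its regions and in its share of called members. Between 28 and 36 Mb, a stretch set apart here after its values were seen, the 313 members were narrower (median 776 bp against 1290 bp for the other members) and less read (median log2 CPM 1.80 against 3.06). Here 40 members (12.8%) were called higher in the mid population, against 35.3% of the other 2452. The median log2 fold change was -0.40, against -0.50 for the others, and the median standard error 0.22 against 0.18. Medians at least as weak were found on the short arm, from 4 to 6 Mb (-0.359) and from 8 to 10 Mb (-0.393). Members over 663 and up to 879 bp wide, taken over the whole set, had a median of -0.32. Summed CPM of the high population was 0.755, 0.727, 0.704 and 0.72 of that of the mid population in the bins from 28 to 36 Mb. In the other bins with 30 or more members it was at most 0.691. In the bin from 28 to 30 Mb, 2 of 62 members (3.23%) were called although the median was -0.40. The order of the pairs also differed: pair 2 had the most negative median in the 3 bins between 28 and 34 Mb (-0.68, -0.58 and -0.60), and pair 1 in every other bin.

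Beyond 36 Mb the called share returned to between 27.2% and 41.4% in bins with 30 or more members. The bins from 36 to 38 Mb and from 40 to 42 Mb shared the most negative median of these, -0.57. In the latter, 118 members summed to 1205, 1214 and 1409 CPM in the high libraries and to 2220, 2097 and 1962 CPM in the mid libraries. The bin with the most members and the most reads, from 48 to 50 Mb, had 182 members, 69 of them called (37.9%), and a median of -0.455. It summed to 2396, 2593 and 2592 CPM in the high and to 4192, 3765 and 3702 CPM in the mid libraries. The 3 bins with fewer than 30 members (15, 20 and 12), next to zinc finger windows, had medians of -0.55, -0.65 and -0.54. Over the 23 bins the called share followed the median read level of a bin (Spearman's rho 0.763) and its median width (0.641), as a description of bins that share libraries and depth.

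**Figure D3:**
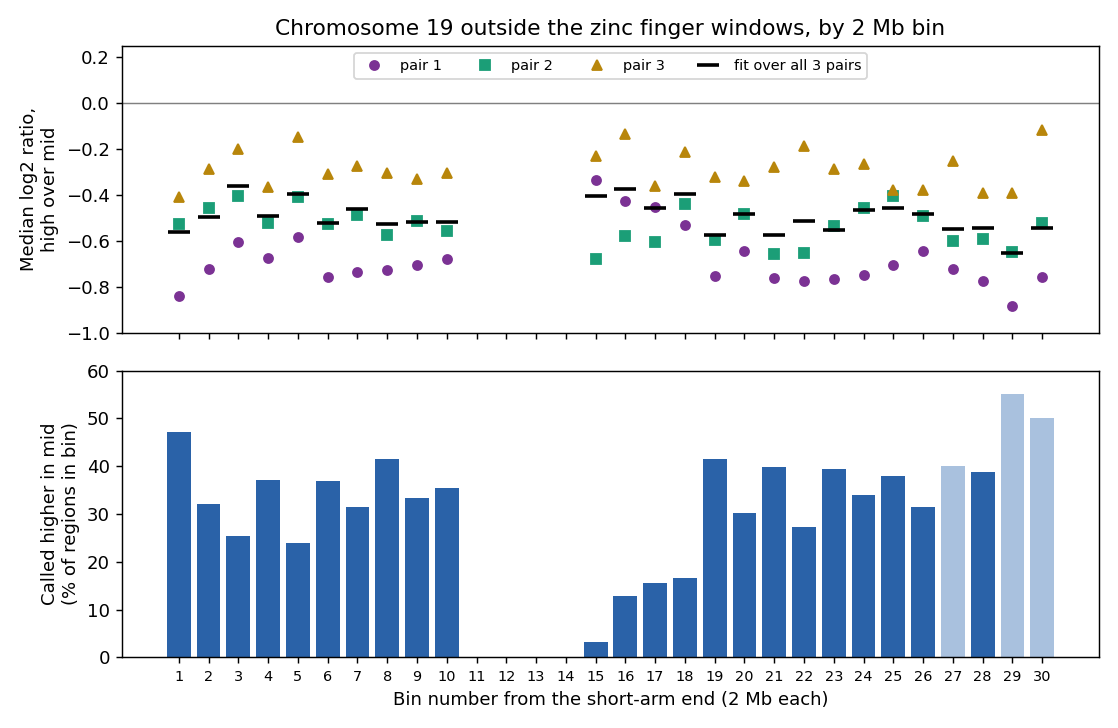
Upper panel: median log2 ratio of high over mid in each 2 Mb bin (y axis) for pairs 1, 2 and 3 and for the fit over all pairs, against bin number from the short-arm end; bins without a member are empty. Lower panel: share of a bin's members called higher in the mid population (%, y axis from 0), in pale colour for bins with fewer than 30 members; the share dips to 3.23% after the gap without members while the medians in the upper panel stay between -0.57 and -0.36 in the bins with 30 or more.

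The widest members were called most often and shifted most. Among members of up to 663 bp, the narrowest of 5 width classes set on all regions, 9 of 349 (2.58%) were called higher in the mid population, with a median log2 fold change of -0.39. Among members over 2150 bp, the widest class, 489 of 600 (81.5%) were called, with a median of -0.72. The classes between them had medians of -0.32, -0.38 and -0.545 from narrow to wide, so the shift was not ordered by width up to 1334 bp. Median log2 CPM was 1.13 in the narrowest and 5.03 in the widest class, and the part of read level in the calls was not tested. On other chromosomes the narrowest and widest classes had medians of 0.09 and -0.21, with 0.45% and 19.1% called. The members lay lower than regions of other chromosomes in each of the 5 width classes, by 0.44 to 0.51 in the medians. The classes of read level gave the same picture: in the highest, 528 of 589 members (89.6%) were called, against 19.9% on other chromosomes. In the zinc finger windows and on chromosomes 16 and 22 the widest class likewise had the lowest median (-0.52 and -0.45).

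**Figure D4:**
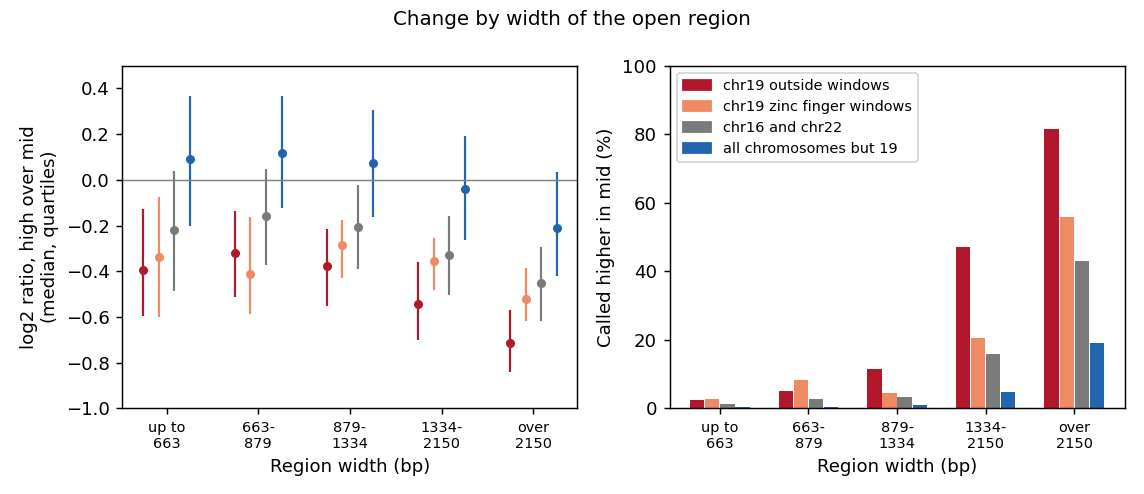
Left: median log2 ratio of high over mid with quartiles (y axis) in 5 classes of region width in bp (x axis), for the members, the zinc finger windows of chromosome 19, chromosomes 16 and 22, and all chromosomes but 19. Right: share of the regions called higher in the mid population (%, y axis from 0) in the same classes; the members rise from 2.58% in the narrowest to 81.5% in the widest class.

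The member with the smallest p-value lay at chr19:2473945-2482486, 8542 bp wide and the second widest of all members. It had 48.7, 43.6 and 40.3 CPM in high replicates 1, 2 and 3, and 146, 116 and 87.5 CPM in mid replicates 1, 2 and 3. Every mid library lay above every high library, and replicate 1 was the highest of both populations. The log2 fold change was -1.37 (standard error 0.12, adjusted p = 7.19e-12, edgeR), a level 2.59-fold higher in the mid population. Slightly nearer to the short-arm end, chr19:2268940-2270034 changed most of all called members. Its level was 10.3, 9.47 and 6.63 CPM in the high and 30, 26.1 and 20.4 CPM in the mid libraries, without overlap. The log2 fold change was -1.54 (standard error 0.15, adjusted p = 5.51e-10, edgeR).

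Further members with small p-values were spread over the chromosome. At chr19:1247788-1252641 the high libraries were nearly equal, at 53.1, 54.1 and 52.7 CPM, and the mid libraries had 123, 128 and 107 CPM (log2 fold change -1.16, standard error 0.12, adjusted p = 6.31e-10, edgeR). Near the end of the short arm next to the gap, chr19:18057929-18063804 had 37.5, 35.7 and 35.1 CPM in the high and 91.0, 84.5 and 73.0 CPM in the mid libraries (-1.19, adjusted p = 9.75e-10). Near the long-arm end, chr19:56108884-56112604 had 52.8, 48.5 and 40.5 CPM against 108, 109 and 102 CPM (-1.18, adjusted p = 6.31e-10). These 3 regions had a level in the mid population 2.23 to 2.28 times that in the high population, and none of them overlapped between populations.

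The other large changes were in weakly read regions. Between 0.431 and 1.67 CPM was measured in the high libraries and between 2.87 and 3.30 CPM in the mid libraries at chr19:3384606-3385217 (log2 fold change -1.44, adjusted p = 0.00052, edgeR). The level at chr19:31173768-31174399 was 1.14, 0.923 and 0.963 CPM in the high and 3.72, 2.34 and 2.15 CPM in the mid libraries (-1.40, adjusted p = 0.000757). With 2.17, 2.46 and 1.78 CPM against 4.81, 5.24 and 5.10 CPM, chr19:1545921-1546724 completed the 5 largest changes (-1.26, adjusted p = 5.33e-05). Each of the 3 was at most 804 bp wide and did not overlap between the populations. Their calls depended on the processing: all 3 were lost with DESeq2 and with offsets per chromosome. The first of them was also lost with no replicate block (log2 fold change -1.38), without high replicate 2 (-1.07) and without mid replicate 2 (-1.06). The call at chr19:31173768-31174399 was lost with no replicate block (-1.44), without either replicate 2 (-1.42) and without mid replicate 1 (-1.23).

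The 5 members described next, among the most read or the widest, changed by about 2-fold. Over all 589 members of the highest class of read level the median log2 fold change was -0.74 (quartiles -0.85 and -0.62). The most read member, chr19:54480249-54486838, had 97.6, 93.1 and 91.6 CPM in the high and 196, 173 and 174 CPM in the mid libraries (log2 fold change -0.94, standard error 0.11, adjusted p = 2.16e-08, edgeR). Next came chr19:7932822-7940196 with 96.0, 93.4 and 80.8 CPM against 191, 181 and 166 CPM (-0.997), and chr19:13259948-13267626 with 89.2, 79.2 and 83.9 CPM against 185, 179 and 162 CPM (-1.06). In the widest member, chr19:46141450-46150028, the high libraries lay between 68.6 and 70.2 CPM and the mid libraries between 120 and 157 CPM (-0.93). The third widest, chr19:47728407-47736576, had 81.6 to 88.3 CPM in the high and 152 to 165 CPM in the mid libraries (-0.91). All 5 were called higher in the mid population.

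The member with the smallest p-value in each of the 23 bins with 30 or more members is given as a description of where the clearest changes lay. Picked in this way, all 23 were called higher in the mid population and had no overlap between the populations, which holds for 13.0% of all regions and for 56.2% of the members. Their levels were 1.68 to 2.59 times higher in the mid population, with adjusted p-values from 7.19e-12 to 0.000117 (edgeR), and 21 of the 23 were wider than 2150 bp. The smallest of these changes stood at chr19:30333713-30337042, in the stretch after the gap, with 37.6, 32.1 and 30.3 CPM against 54.4, 61.6 and 52.2 CPM (log2 fold change -0.75, adjusted p = 2.39e-05). This call was lost without high replicate 2 (-0.66) or mid replicate 2 (-0.66). In the bin from 28 to 30 Mb it was chr19:28329014-28330662, with 3.94, 6.58 and 3.0 CPM against 7.40, 11.7 and 7.51 CPM (-1.02, adjusted p = 0.000117). Here replicate 2 was the highest of both populations, and the call was lost with no replicate block (-0.998).

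The single member called higher in the high population was chr19:36078013-36078614, 602 bp wide. It had 8.96, 4.55 and 4.07 CPM in high replicates 1, 2 and 3 and 2.07, 3.20 and 3.45 CPM in the mid replicates. All high libraries lay above all mid libraries, and pair 1 differed far more than pair 3. The log2 fold change was 0.95 (standard error 0.23, adjusted p = 0.00388, edgeR). The change fell to 0.34 without high replicate 1 and to 0.36 without mid replicate 1, and the call was lost in both cases, with no replicate block and with loess offsets on region width. Without high replicate 1 no member was called higher in the high population by edgeR (11 had a positive change at an unadjusted p under 0.05), and DESeq2 also called 0 (1 at an unadjusted p under 0.05).

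To describe how members differ from their own chromosome, the fit was repeated with offsets that set the median log2 ratio of each chromosome to 0 in each library. The median log2 fold change of members was then -0.0015. With these offsets 81 members (2.93%) were called higher in the mid population, against 2.81% of all regions, and 20 (0.723%) higher in the high population, against 1.49%. All 81 were among the 906 and were wide, with a median of 3343 bp. Of the bin leaders above, 18 of 23 were still called. The 20 were called higher only relative to the chromosome, apart from chr19:36078013-36078614: they had positive fold changes without the offsets (0.048 to 1.23, median 0.36) and none was among the 906. Chosen after its values were seen, chr19:4408662-4410111 had 7.30, 9.23 and 13.2 CPM in the high and 6.76, 8.48 and 6.17 CPM in the mid libraries. Its log2 fold change was 0.46 (adjusted p = 0.087, edgeR) and became 0.95 (adjusted p = 0.000237) with the offsets. The populations overlapped at this region, and the change without offsets fell to 0.123 without high replicate 3 and to 0.117 without mid replicate 3. Likewise chosen afterwards, chr19:54711457-54714213 had 11.3, 14.7 and 19.7 CPM against 12.2, 13.2 and 13.8 CPM (0.20, adjusted p = 0.43, and 0.68, adjusted p = 0.00131, with the offsets). The populations overlapped here too, and the change without offsets fell to 0.0302 without high replicate 3 and to 0.0235 without mid replicate 3.

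Inside the zinc finger windows the shift had the same direction. Their 333 regions had a median log2 fold change of -0.36, with 53 called higher in the mid population (15.9%) and 1 in the high population. Their share of reads was 0.395% ± 0.068 (SD, n = 3) in the high and 0.484% ± 0.0142 (SD, n = 3) in the mid population, and high replicate 3, at 0.472%, lay above mid replicate 1, at 0.468%. The members' median deviation minus that of these regions differed by -0.138 (log2, high minus mid), with p = 0.2 by a two-sided exact permutation test. That test cannot go under 0.1 with 3 libraries per population, so it could not pass and does not show whether the members differ from the windows. The pairs gave medians of -0.69 and -0.52 for members and windows in pair 1, -0.51 and -0.47 in pair 2, and -0.30 and -0.10 in pair 3. Among regions over 2150 bp, 81.5% of members and 55.9% of the 34 regions in the windows were called. At the 14 window edges, the closest members had log2 fold changes from -0.69 to -0.0095 (median -0.45, 2 called), and the closest regions inside from -0.68 to 0.065 (median -0.41, 3 called). Not all of these lay at the edge: the closest member was 3880 kb from the edge at 24.40 Mb and 285 kb from that at 56.50 Mb.

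Chromosome 19 was the extreme of an ordered series of autosomes. Including the zinc finger windows, its median log2 fold change was -0.47, the lowest of the 22 autosomes in the fit and in each of the 3 pairs. Chromosome 22 was second in every pair (-0.35 in the fit), and chromosomes 4 (0.24) and 13 (0.19) were the highest in every pair. Chromosome Y, left out of this series, had only 21 regions and a lower median than chromosome 19 in the fit (-0.508). Its pairs 1, 2 and 3 gave -0.186, -0.718 and -1.0. Chromosomes 16 and 22 together had a median of -0.27 over 5299 regions, with 10.7% called higher in the mid population and 0.51% in the high population. The GC content of an autosome in GRCh38 and its median log2 fold change had a Spearman's rho of -0.950 and a Pearson's r of -0.945 (22 autosomes, which share the same 6 libraries). The rho was -0.728 with protein-coding genes per Mb and -0.836 with the median width of the regions. Chromosome 21 left this order, with a GC content of 40.9% and a median of -0.22. The part of GC content, gene density or width in the shift of the members was not tested, since the sequence of hg19 was not used.

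**Figure D5:**
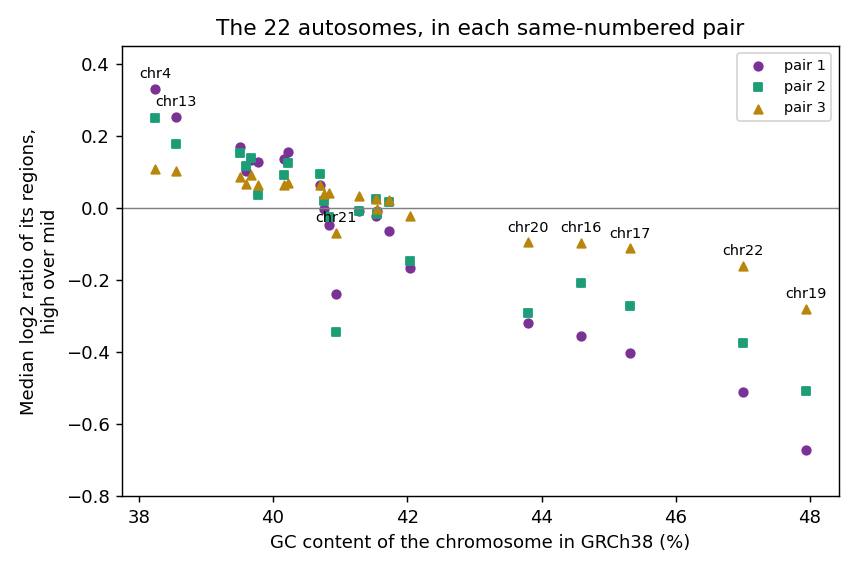
Median log2 ratio of high over mid over the regions of each of the 22 autosomes (y axis) against the GC content of the chromosome in GRCh38 in percent (x axis), with a marker for each same-numbered pair. Chromosome 19, at 47.9% GC, has the lowest median in all 3 pairs (-0.67, -0.51 and -0.28), and chromosome 4, at 38.2%, the highest.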

How the data were processed

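The authors used Trimmomatic to trim the FAST-ATAC reads and bwa (0.7.15 in the submitters' processing notes) to map them to hg19, removed duplicates with Picard and moved each read to the Tn5 cut site. They called regions with MACS (1.4.2 in those notes) on alignments pooled over replicates, merged both populations, took out blacklisted regions and deposited raw read counts per region and library. Because calling was pooled, calls per replicate are unknown, and wide merged regions collect more reads.

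Tests were run by edgeR 4.0.16 under R 4.3.3 (quasi-likelihood fit with TMM scaling over all 118556 regions, no filter, replicate block of 3 levels, Benjamini-Hochberg). Starts are printed 1 higher than deposited, read as counting from 0. Alternatives used limma 3.58.1 (loess span 0.3) and DESeq2 1.42.0, and the fit was tested on simulated data. The block follows the labels, which give each number once per population. Deviations of same-numbered libraries from their group means correlated at r = 0.302, 0.191 and 0.234 across regions, other pairs at -0.257 to 0.0599. Such deviations cancel within each population, so positive same-numbered values make the others negative on balance. Of the members, 2763 had a CPM above 1 in at least 3 libraries. CPM values are TMM-scaled.

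Named regions are, among called members with all 3 pairs in one direction, the 5 largest changes and the 5 smallest p-values per direction, then the 3 most read and 3 widest members and the smallest p in each 2 Mb bin of at least 30 members. The members and rules were chosen with earlier results of these data known. Chromosome GC content and RefSeq gene numbers are from GRCh38, chromosome by chromosome. Positions were not compared between builds, so no gene names or sequences are given.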

Additional observations from a re-analysis of the deposited data

How the results depend on the processing

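The number of members called higher in the mid population (906) was 491 with no replicate block and 81 with offsets per chromosome, and ran from 191 to 1014 with replicates left out. Replicate 2 decided the low end: 191 without mid replicate 2, 317 without high replicate 2 and 194 without both. Over all regions these settings gave 432, 839 and 438 calls to the mid population, against 4472 in the main fit. The cause was not tested. DESeq2, RLE size factors, total counts, both loess offsets, both filters on low counts, replicate 1 set apart as a batch and a threshold of 0.05 kept the count within 1.5 times.

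Against 1 member called higher in the high population, offsets per chromosome gave 20 and the threshold of 0.05 gave 3. DESeq2, loess offsets on region width and no replicate block gave 0, with 1, 7 and 4 members at an unadjusted p under 0.05 and a positive change. Leaving out replicates gave 0 to 3. The median log2 fold change of members (-0.49) moved to -0.0015 with offsets per chromosome, by their construction, and stayed negative in every other setting. Total counts alone set the median of all regions to 0.12 and that of the members to -0.40, a gap of -0.52 as with TMM. The difference in the share of reads kept its sign in all 5 alternatives. Calls of the 33 named regions were lost 36 times and gained 3 times over all settings, and no called region changed sign. Leaving out replicate 2 and offsets per chromosome were among the settings that took calls away.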

Other observations

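Shifts at least as strong as the weakest on chromosome 19 also occurred elsewhere. Of 1345 bins of 2 Mb on other chromosomes with 30 or more regions, 37 (2.75%) had a median log2 fold change at or below -0.36, the weakest of the 23 chromosome 19 bins of that size. Chromosome 17 held 9 of these bins, chromosome 22 held 6, and chromosomes 16 and 20 held 5 each. The median over all 1345 bins was 0.10. How many of them reached the members' median of -0.49 was not counted.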
